A study of Homo sapiens with 6 samples.

Results

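The axon guidance genes measured in METTL3-silenced retinal pigment epithelium (RPE) cells comprised the ligands, receptors and adhesion partners of the ephrin, semaphorin, Slit and netrin systems, together with the contactins, L1CAM and the cytoskeletal proteins that act behind the semaphorin receptors. Members were chosen by gene symbol alone, as protein-coding genes whose names carried the family prefixes (EPHA, EPHB, EFNA, EFNB, SEMA, PLXN, NRP1, NRP2, ROBO, NTN, SLIT, NTNG, SLITRK, UNC5, RGMA, DCC, RGMB, CNTN, NEO1, L1CAM, NRCAM, NCAM and DPYSL) or were MAP1B, and the rule used no measured value. There were 50 such genes among the 7758 genes of the expression table. RNA sequencing had been done on ARPE-19, a human RPE cell line, in 3 libraries with a scrambled control hairpin (sh-Control) and 3 with a hairpin that silences METTL3 (sh-METTL3), the catalytic part of the complex that places the N6-methyladenosine (m6A) mark on mRNA. Every library came from cells given lipopolysaccharide (LPS) at 1 μg/ml for 24 h, so the comparison was between hairpins under inflammation, without an unstimulated group. Per the study's methods the hairpins were delivered by lentivirus and stably transformed strains were selected. Whether the 3 libraries of a group were separate cultures was not stated, and p-values then measure only the spread between these libraries, which may be technical.

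Guidance systems pair a cue on or released from one cell with a receptor on another. Ephrins on the cell membrane bind Eph receptor tyrosine kinases, semaphorins bind plexins alone or with a neuropilin, Slits bind Robo receptors, and netrins bind DCC or UNC5 receptors. The receptors act on small GTPases, kinases and collapsin response mediator proteins (CRMPs) that reshape actin and microtubules, and the same systems set cell contacts, spreading and vessel growth in epithelia and endothelium. In the eye the RPE lies between the photoreceptors and the choroidal vessels, and it is exposed to several of these cues.

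Values are read counts divided by 1 size factor per library, called scaled counts here. The table held only genes that its authors had already called different between these groups, so a call for a member repeats a selection made on the same libraries. In the limma fit with Benjamini-Hochberg adjustment over the table, 99.9% of all listed genes passed the threshold, and all 50 members did. The passing of the test is therefore not a result about the members, and direction and size are what the values show. Of 102 family genes looked for 50 were listed, and a gene missing from the table may have been unchanged or unexpressed. Listed genes held 10898434 to 17750052 reads in a library, and the full depth is unknown. sh-METTL3 replicate 3 stood furthest from its group, with a chi-square per degree of freedom of 16.15 and 17.24 against the other replicates, where the remaining pairs of replicates gave 3.82 to 11.33. Without it all 50 members still passed, and none changed its log2 fold change by more than 1.47 times. METTL3 itself went from 1118 ± 32.8 scaled counts in sh-Control to 911 ± 128 in sh-METTL3 (SD, n = 3), a log2 fold change of -0.30 (SE 0.10, limma adjusted p = 0.0108). That call was lost with edgeR's RLE scaling (log2 fold change -0.17, adjusted p = 0.0881) and when p-values were adjusted over 60000 tests (adjusted p = 0.0835), and the log2 fold change was -0.18 without sh-METTL3 replicate 3.

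Guidance genes moved in both directions. In the sh-METTL3 cells 27 of the 50 members were higher and 23 lower, beside 47.6% higher and 52.2% lower among all listed genes, or 43.8% and 56.1% among the 6740 listed protein-coding genes. The median log2 fold change of the members was 0.23, against -0.21 over all listed genes and -0.25 over the protein-coding ones. A doubling or more was seen for 11 members, beside 17.5% of all listed genes, and a halving or more for 7, beside 13.2%. Among the 6740 protein-coding genes 847 were doubled and 853 halved. The median size of change, regardless of sign, was 0.75 on the log2 scale for the members, 0.62 for all listed genes and 0.54 for protein-coding ones. The 3 libraries of one group did not overlap the 3 of the other for 47 members, beside 98.5% of all listed genes, and the exceptions were EPHA3, SEMA7A and L1CAM. Adjusted over 60000 tests, 45 members passed, and EPHA3, SEMA4B, SEMA7A, PLXNB2 and L1CAM did not. By level, 45 members had a mean scaled count of at least 50. The other 5 (EPHA10, SEMA5B, PLXNA4, CNTN4 and CNTNAP3) were all higher in sh-METTL3 and accounted for 5 of the 11 doublings. In bulk RNA, fewer cells carrying a transcript and less of it per cell cannot be told apart.

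**Figure D1:**
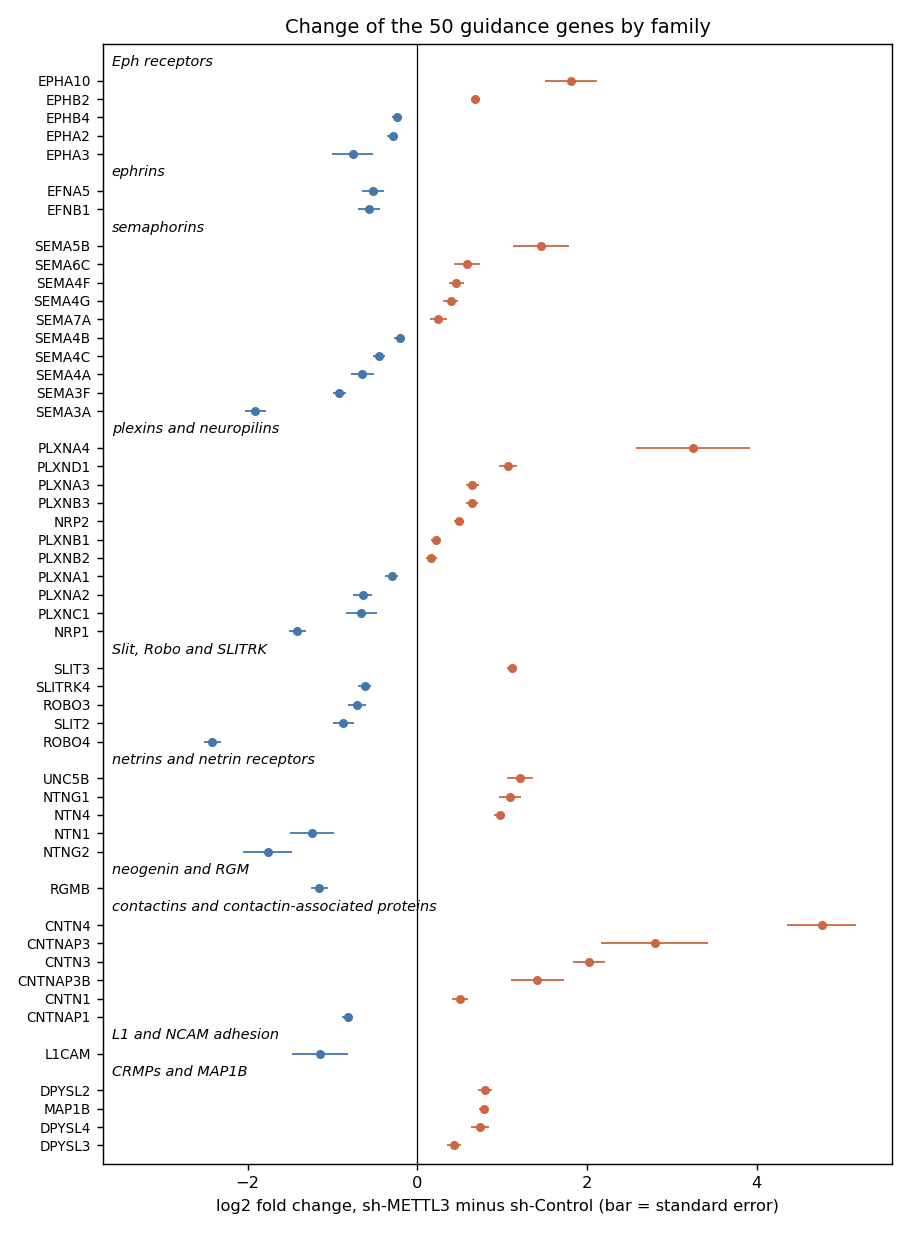
Log2 fold change (sh-METTL3 minus sh-Control, on log2 of the scaled count plus 1) of the 50 guidance genes, grouped by family, with red points for genes higher in sh-METTL3, blue points for genes lower, and bars for the standard error of the limma fit (n = 3 per group). The values run from -2.41 for ROBO4 to 4.76 for CNTN4, both signs occur within most families, and the widest bars belong to the genes with fewest reads.

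Semaphorins are secreted or membrane-bound cues named for a shared sema domain, and 10 of the 20 human genes were listed, 5 higher and 5 lower, around a median change of 0.02 on the log2 scale. Both listed members of the secreted class 3 were lower. SEMA3A (ENSG00000075213, GRCh38 chromosome 7, 83955777 to 84492724, minus strand), the classical collapsing cue for growth cones and a ligand of NRP1, read 299.9, 292 and 309 in sh-Control replicates 1, 2 and 3 and 79.3, 83.8 and 75.0 in the sh-METTL3 replicates. The groups lay far apart, at 26.4% of the control level on average, and the log2 fold change was -1.91 (SE 0.12, limma adjusted p = 6.63e-07). SEMA3F, which signals through NRP2, read 1895, 1840.0 and 1647 in sh-Control and 939, 869 and 1046 in sh-METTL3. Its 3 silenced libraries were all below the lowest control, for a log2 fold change of -0.92 (SE 0.08, limma adjusted p = 5.12e-06).

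The membrane-bound class 4 semaphorins, which act mainly through B-type plexins and also on immune cells, split by gene, with 5 of 6 listed. SEMA4A read 253, 305 and 346 in sh-Control and 203, 195 and 174 in sh-METTL3, a fall to 63.3% of the control level (log2 fold change -0.65, SE 0.14, limma adjusted p = 0.00131). SEMA4C (-0.45) and SEMA4B (-0.21) were also lower, whereas SEMA4F (0.46) and SEMA4G (0.39) were higher. The SEMA4B change was small, at 3191 ± 214 against 2759.8 ± 149 (SD, n = 3), and it no longer passed with RLE scaling (log2 fold change -0.09, adjusted p = 0.231). For SEMA4G, 27.4% of the exonic bases overlapped genes on the opposite strand, and without knowing strandedness those reads cannot be assigned.

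The remaining classes each had a single listed gene, all higher. SEMA6C read 132, 147 and 187 in sh-Control and 222, 216 and 256 in sh-METTL3, a rise with no overlap and a log2 fold change of 0.58 (SE 0.15, limma adjusted p = 0.00409). SEMA5B, a transmembrane semaphorin with thrombospondin repeats, rested on 10, 9 and 10 reads in the control libraries and 18, 27 and 25 in the silenced ones (log2 fold change 1.46, SE 0.33). SEMA7A, a lipid-anchored semaphorin, was by scaled count per kb of exon the most abundant of the listed ligands, at 1439 in sh-Control and 1713 in sh-METTL3. Its libraries read 5194, 6114 and 5102 in sh-Control and 7081, 6941 and 5509 in sh-METTL3, so the groups overlapped, and its call (log2 fold change 0.25, limma adjusted p = 0.0346) was lost when sh-Control replicate 1 or 3 or sh-METTL3 replicate 1 or 2 was left out, with adjusted p values of 0.114, 0.121, 0.142 and 0.122.

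Plexins and neuropilins, the semaphorin receptors, were the only family with every gene listed (11 of 11), 7 higher and 4 lower, around a median of 0.22 on the log2 scale. NRP1 (ENSG00000099250, chromosome 10, 33177492 to 33336262, minus strand), a co-receptor for class 3 semaphorins and for vascular endothelial growth factor, read 2549, 2450.1 and 2293 in sh-Control and 870.5, 800.3 and 1082 in sh-METTL3. The silenced libraries held 37.7% of the control level, and the log2 fold change was -1.42 (SE 0.10, limma adjusted p = 1.17e-06). NRP2, its paralog, moved the other way, from 3209.9 ± 94.8 to 4517 ± 307 (SD, n = 3), for a log2 fold change of 0.49.

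PLXND1 (chromosome 3, 129555175 to 129606818, minus strand), a plexin best known from endothelial cells, read 1993, 2197 and 1769 in sh-Control and 4344, 4619.9 and 3574 in sh-METTL3. It was 2.10-fold higher with no overlap, at a log2 fold change of 1.07 (SE 0.10, limma adjusted p = 7.8e-06). PLXNA3 read 1750.2, 1951 and 1599 in sh-Control and 2672, 2679 and 2943 in sh-METTL3 (log2 fold change 0.65, SE 0.08, limma adjusted p = 3.27e-05). PLXNB3 changed by a like amount, 0.64, but 20.4% of its exonic bases were shared with SRPK3 on the same strand. PLXNC1, the receptor of SEMA7A, read 196, 185 and 267 in sh-Control and 118, 126 and 165 in sh-METTL3. Its silenced libraries were all lower than its control libraries, with a log2 fold change of -0.66 (SE 0.18, limma adjusted p = 0.00525).

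Within the A class, PLXNA1 (-0.30) and PLXNA2 (-0.65) were lower, while PLXNA3 was higher and PLXNA4 rose from 5, 0 and 7 reads to 22, 24 and 41 (log2 fold change 3.25, SE 0.67). All 3 B-class plexins were higher. PLXNB2, a receptor for class 4 semaphorins, had the highest level of any member, at 4008 scaled counts per kb of exon in sh-Control and 4494 in sh-METTL3. Its rise of 12.1% (log2 fold change 0.17, limma adjusted p = 0.0314) was the smallest change among the members, and the call was lost when sh-Control replicate 1 or 3 or sh-METTL3 replicate 1 or 2 was left out (adjusted p between 0.0806 and 0.0998). The size of the smallest changes also depended on scaling. With RLE factors the log2 fold change of PLXNB2 was 0.29, of PLXNB1 0.34 in place of 0.22, of SEMA7A 0.37 in place of 0.25 and of PLXNA1 -0.18 in place of -0.30.

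**Figure D2:**
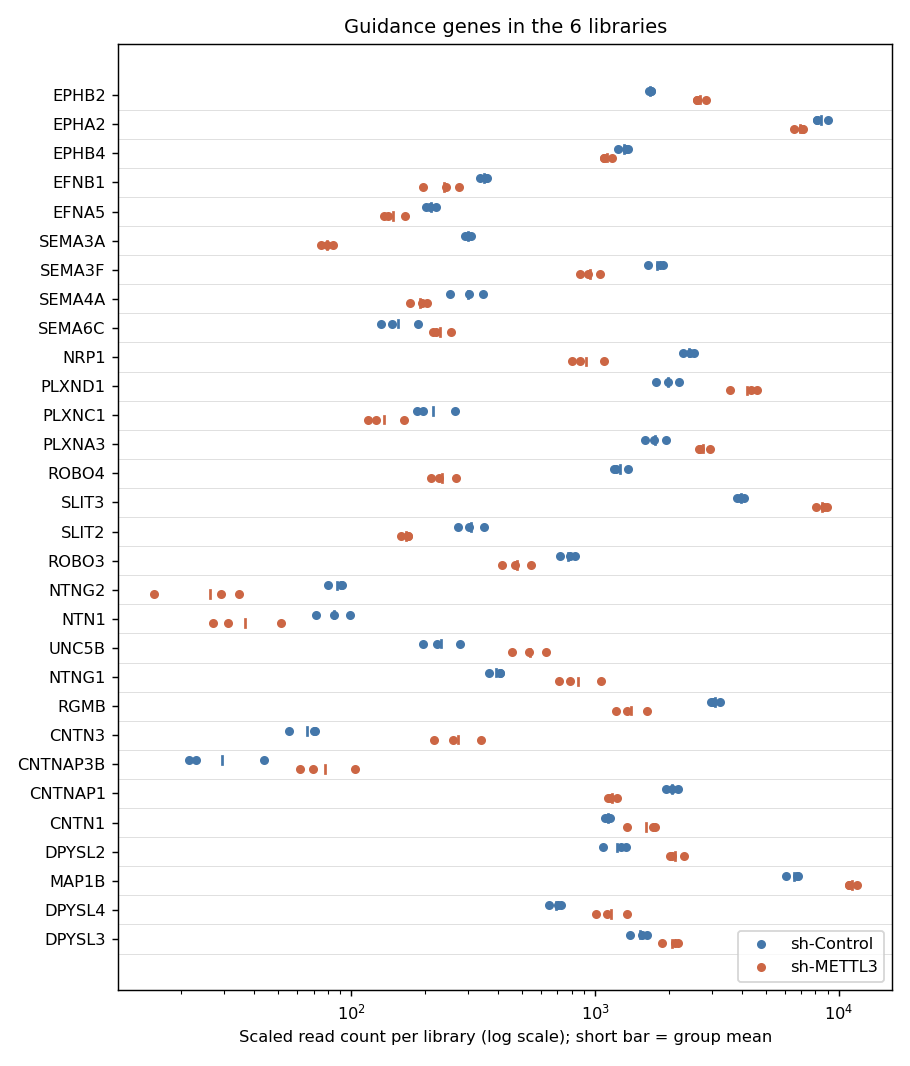
Scaled read counts (horizontal log axis) of 30 guidance genes in the 3 sh-Control libraries (blue) and the 3 sh-METTL3 libraries (red), with a short bar at each group mean. The genes were picked for groups that do not overlap, as holds for 98.5% of all listed genes, and the distance between groups ranges from narrow for EPHB4, at 1240.4 against 1169 for the nearest libraries, to wide for ROBO4, at 1195 against 268.

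Eph receptors are the largest family of receptor tyrosine kinases, and 5 of the 14 were listed, 2 higher and 3 lower. EPHB2 (ENSG00000133216, chromosome 1, 22710839 to 22921500, plus strand), a receptor for B-type ephrins, read 1688, 1687 and 1661 in sh-Control and 2622, 2847 and 2627 in sh-METTL3. It was 1.61-fold higher (log2 fold change 0.68, SE 0.05, limma adjusted p = 2.24e-06), and the spread within groups was a small part of the difference. EPHB4 (chromosome 7, 100802565 to 100827521, minus strand), known for its part in separating arteries from veins, read 1361, 1343 and 1240.4 in sh-Control and 1085, 1089 and 1169 in sh-METTL3. It fell by 15.2% (log2 fold change -0.24, SE 0.06, limma adjusted p = 0.00466), and the call was lost with RLE scaling (-0.12, adjusted p = 0.0983). EPHA2, an epithelial Eph receptor with a high level per kb (2025 scaled counts in sh-Control and 1656 in sh-METTL3), read 8112, 9040.4 and 8119 in sh-Control and 7048, 7088 and 6529 in sh-METTL3. It fell by 18.2% without overlap (log2 fold change -0.29, SE 0.06, limma adjusted p = 0.00137), or -0.17 with RLE scaling.

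EPHA3, a receptor for A-type ephrins, read 69.4, 106 and 94.4 in sh-Control and 70.0, 47.7 and 41.4 in sh-METTL3. One silenced library lay above one control library, and the call (log2 fold change -0.76, SE 0.24, limma adjusted p = 0.0113) was lost without sh-Control replicate 2 (adjusted p = 0.0554). EPHA10, a kinase-defective Eph receptor, rose from 8, 8 and 7 reads to 31, 16 and 28 (log2 fold change 1.81, SE 0.30). Both listed ephrins were lower. EFNB1, a transmembrane ligand of EphB receptors, read 337, 359 and 357 in sh-Control and 277, 244 and 196 in sh-METTL3, for a log2 fold change of -0.57 (SE 0.13, limma adjusted p = 0.00223). EFNA5, a lipid-anchored ligand that patterns the projections of retinal axons, read 222, 210.4 and 202 in sh-Control and 136, 166 and 141 in sh-METTL3 (log2 fold change -0.52, SE 0.13, limma adjusted p = 0.00325). Neither ephrin had a control library as low as any silenced one.

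Among the Slit, Robo and SLITRK genes, 5 of 13 were listed, 1 higher and 4 lower. ROBO4 (ENSG00000154133, chromosome 11, 124883691 to 124898500, minus strand), a Robo receptor known mainly from endothelium, read 1216, 1366 and 1195 in sh-Control and 229.5, 211 and 268 in sh-METTL3. It fell further than any other member, to 18.8% of the control level (log2 fold change -2.41, SE 0.10, limma adjusted p = 4.68e-08). Genes on the opposite strand overlapped 16.9% of its exonic bases. ROBO3, which in vertebrates modulates midline crossing, lies beside it (chromosome 11, 124865386 to 124881470, plus strand) and read 715, 825 and 785 in sh-Control and 414, 470.4 and 546 in sh-METTL3 (log2 fold change -0.71, SE 0.11, limma adjusted p = 0.000171). ROBO1 and ROBO2 were not in the table.

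Slit ligands split. SLIT3 (ENSG00000184347, chromosome 5, 168661733 to 169301129, minus strand) read 3829.8, 4092 and 3918 in sh-Control and 8662, 8919 and 8025 in sh-METTL3, and was 2.16-fold higher (log2 fold change 1.11, SE 0.06, limma adjusted p = 1.36e-07). SLIT2 (ENSG00000145147, chromosome 4, 20253260 to 20620561, plus strand), the better known repellent at the midline and in the retina, read 349, 305 and 274 in sh-Control and 160.5, 171 and 171 in sh-METTL3. Its silenced libraries held 54.2% of the control level (log2 fold change -0.87, SE 0.12, limma adjusted p = 0.000105). SLIT3 was the more abundant Slit in both groups, at 277 and 599 scaled counts per kb against 31.8 and 17.3 for SLIT2. SLITRK4, a transmembrane protein with Slit-like leucine-rich repeats, was lower at 998 ± 75.6 against 648 ± 29.1 (SD, n = 3; log2 fold change -0.62).

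Netrins and their receptors numbered 5 of 12, 3 higher and 2 lower. Of the 5, 4 were at least doubled or halved, beside 30.7% of all listed genes and 25.2% of the protein-coding ones. NTN1 and NTNG2, both among the 4, had low mean scaled counts of 60.9 and 56.9. NTN1, the founding secreted netrin, read 84.6, 99.0 and 72.0 in sh-Control and 51.3, 27.1 and 31.4 in sh-METTL3 (log2 fold change -1.24, SE 0.26, limma adjusted p = 0.0013). Its receptor UNC5B, which mediates repulsion, read 197, 224 and 279 in sh-Control and 535, 630.2 and 455 in sh-METTL3 (log2 fold change 1.21, SE 0.15, limma adjusted p = 5.12e-05). Ligand and receptor thus moved in opposite directions. NTN4, a netrin of basement membranes, rose from 597 ± 17.2 to 1174 ± 33.3 (SD, n = 3; log2 fold change 0.97).

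The netrin-G proteins are lipid-anchored and bind their own partners rather than DCC or UNC5. NTNG1 read 407, 406 and 366 in sh-Control and 714, 786 and 1057 in sh-METTL3 (log2 fold change 1.10, SE 0.13, limma adjusted p = 3.75e-05). NTNG2 read 91.7, 90.3 and 80.4 in sh-Control and 34.5, 15.5 and 29.1 in sh-METTL3 (log2 fold change -1.76, SE 0.29, limma adjusted p = 0.000274). The closely related pair therefore changed in opposite directions. RGMB, a lipid-anchored repulsive guidance molecule that is also a co-receptor for bone morphogenetic proteins, read 2994, 3256 and 3045 in sh-Control and 1218, 1353 and 1637 in sh-METTL3. It was the one listed gene of its family of 3 and was more than halved (log2 fold change -1.15, SE 0.10, limma adjusted p = 3.05e-06). RGMB-AS1 and another gene on the opposite strand shared 45.6% of its exonic bases, so part of the value cannot be assigned between them.

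Contactins and contactin-associated proteins, adhesion molecules of neurites and of the nodes of myelinated axons, had 6 of 12 genes listed, 5 higher and 1 lower, around a median of 1.72 on the log2 scale. CNTN3 read 71.0, 55.7 and 70.1 in sh-Control and 260.3, 219 and 340.4 in sh-METTL3, and was 4.16-fold higher (log2 fold change 2.03, SE 0.19, limma adjusted p = 6.28e-06). CNTN1 read 1096, 1155 and 1128 in sh-Control and 1722, 1756 and 1349 in sh-METTL3 (log2 fold change 0.50, SE 0.09, limma adjusted p = 0.000649). CNTNAP1, the partner of CNTN1 beside the node of Ranvier, read 1955, 2191 and 2064 in sh-Control and 1129, 1155 and 1228 in sh-METTL3 (log2 fold change -0.82, SE 0.06, limma adjusted p = 1.85e-06). The partners thus moved apart.

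CNTN4, on chromosome 3 (2098813 to 3057956, plus strand), went from 0, 0 and 1 read in the control libraries to 34, 25 and 31 in the silenced ones. The ratio of pooled reads, corrected for the size factors, was 110.5 with a 95% counting interval of 19.3 to 4411, which covers counting error only. CNTNAP3B read 43.9, 23.1 and 21.5 in sh-Control and 104, 69.6 and 61.6 in sh-METTL3 (log2 fold change 1.42, SE 0.31, limma adjusted p = 0.0016). It and CNTNAP3 (0, 4 and 3 reads against 12, 11 and 29) are near-identical copies, and how reads were divided between them is uncertain. L1CAM, an adhesion molecule of growing axons, was the one listed gene of the L1 and NCAM family and read 95.7, 94.2 and 60.8 in sh-Control and 27.1, 28.4 and 62.7 in sh-METTL3. sh-METTL3 replicate 3 lay above the lowest control library, and the mean fall (log2 fold change -1.15, SE 0.33, limma adjusted p = 0.00673) came mostly from the other two silenced libraries.

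The CRMPs, cytosolic proteins that carry semaphorin signals to microtubules, and MAP1B, a microtubule-associated protein of growing neurites, formed the one family of more than 1 listed gene in which all genes rose (4 of 4 listed, of 5 looked for). MAP1B (ENSG00000131711, chromosome 5, 72107234 to 72209570, plus strand), which the study also chose for PCR, read 6748, 6767 and 6069 in sh-Control and 10942, 10994 and 11875 in sh-METTL3. It was 1.73-fold higher (log2 fold change 0.79, SE 0.06, limma adjusted p = 2.15e-06), with every silenced library above every control. The study drew MAP1B from genes whose m6A was lower in its separate sequencing of m6A-marked RNA. It also measured the MAP1B protein after METTL3 silencing. The PCR primers of the study are shown to place its amplicon of 79 bases, which lies in coding sequence and joins exon 2 (chr5:72115762-72115784, plus strand) to exon 3 (chr5:72183761-72183783, where the reverse primer reads the minus strand).
MAP1B forward primer: atctcgacactctgcaagattct
MAP1B reverse primer: tgtttctaaaacgtcacttcggt

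DPYSL2, the gene of CRMP2, read 1282, 1333 and 1072 in sh-Control and 2069, 2018 and 2304 in sh-METTL3 (log2 fold change 0.80, SE 0.09, limma adjusted p = 2.02e-05). DPYSL4 read 645, 723 and 702 in sh-Control and 1009, 1119.9 and 1350.4 in sh-METTL3 (log2 fold change 0.74, SE 0.10, limma adjusted p = 9.61e-05). DPYSL3, the gene of CRMP4, read 1387, 1556 and 1633 in sh-Control and 2118, 2184 and 1876 in sh-METTL3 (log2 fold change 0.43, SE 0.08, limma adjusted p = 0.00054). The rises ran from 35.0% for DPYSL3 to 73.4% for DPYSL2.

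Ligands and receptors were next set side by side, since a cue acts only where its receptor is present. Of 26 textbook pairs, 9 had both genes listed. In 5 of these the ligand was lower and the receptor higher (SEMA3F with NRP2, SEMA4A and SEMA4C with PLXNB2, EFNB1 with EPHB2, and NTN1 with UNC5B). SEMA7A with PLXNC1 was the reverse. Of these 6 opposite pairs 3 rest on PLXNB2 or SEMA7A, whose small changes lost their call in 5 and 6 of 15 alternatives. Both partners were lower in 3 pairs, namely SEMA3A with NRP1, SEMA3A with PLXNA1, and EFNA5 with EPHA3, and in none were both higher. The pairs share genes and are not independent. Over all 19 listed ligands 8 were higher and 11 lower, and over all 19 receptors 10 were higher and 9 lower, with medians of -0.45 and 0.17 on the log2 scale.

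**Figure D3:**
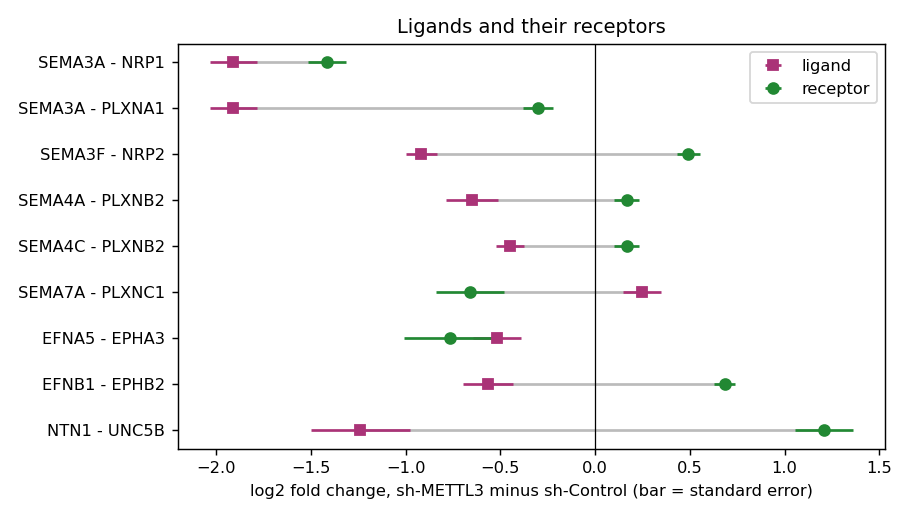
Log2 fold changes (horizontal axis, sh-METTL3 minus sh-Control, bars for standard errors, n = 3 per group) of the ligand (squares) and the receptor (circles) in the 9 pairs with both genes listed. The grey line joining the partners crosses 0 in 6 pairs, of which 3 rest on the small changes of PLXNB2 (0.17) or SEMA7A (0.25), and it is longest for NTN1 (-1.24) with UNC5B (1.21).

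Several genes of the same family changed in opposite directions, which altered the balance between them within each library. The ratios below are of scaled counts per kb of exon, so that the library factor cancels, and the pairs were picked after their values were seen, so they are given without a test. NRP1 to NRP2 was 0.991, 0.903 and 0.849 in sh-Control and 0.225, 0.204 and 0.313 in sh-METTL3, a 3.69-fold lower ratio on average. SLIT2 to SLIT3 went from 0.115 ± 0.0165 to 0.0289 ± 0.00216 (SD, n = 3). NTN1 to NTN4 went from 0.0934 ± 0.0174 to 0.0203 ± 0.00684, and NTNG2 to NTNG1 from 0.259 ± 0.00356 to 0.0371 ± 0.0173. The plexin pair PLXNA2 to PLXNA3 went from 0.206 ± 0.0159 to 0.0838 ± 0.00381. EPHB4 to EPHB2 was 1.89-fold lower in sh-METTL3. The size of a ratio depends on the exon lengths used, and only its change between groups is read here. In none of these pairs did the control and silenced libraries overlap, which the picking had fixed in advance. Each gene alone had groups that did not overlap, and the genes of a pair moved in opposite directions.

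**Figure D4:**
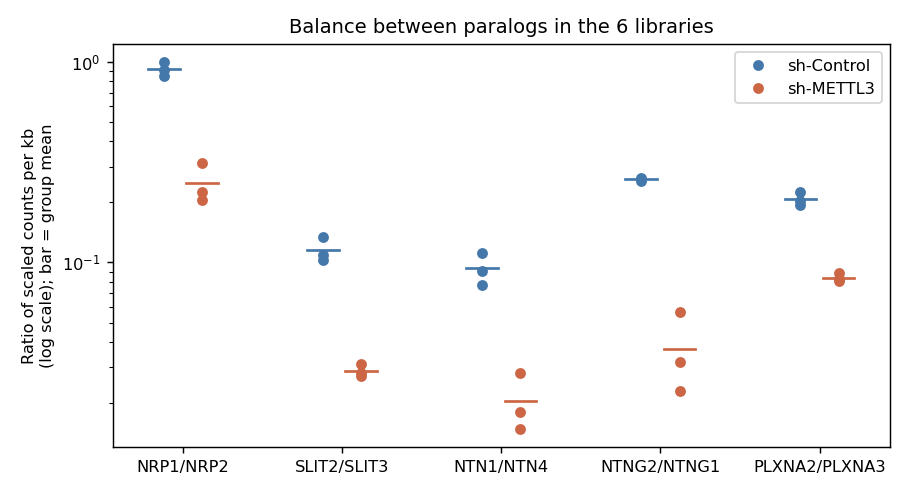
Ratio of the scaled counts per kb of 2 related genes (vertical log axis) in each of the 3 sh-Control (blue) and 3 sh-METTL3 (red) libraries, with a bar at each group mean, for 5 pairs chosen after their values were seen. Every silenced library lies below every control library in each pair, which picking genes with opposite changes and no overlap had fixed in advance. The mean ratio went from 0.914 to 0.248 for NRP1/NRP2 and from 0.259 to 0.0371 for NTNG2/NTNG1.

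Downstream of the receptors, a list of 55 signalling genes (small GTPase regulators, kinases and actin or microtubule regulators) had 33 listed. Of these 13 were higher and 20 lower, beside 47.6% and 52.2% of all listed genes, around a median of -0.28 on the log2 scale. With RLE scaling 13 passed the threshold as higher and 16 as lower, and the rest no longer passed. Among the largest rises were NGEF, an ephrin receptor-coupled exchange factor (3.27, from a mean scaled count of 2.39), and ABLIM1 (1.44), an actin-binding LIM protein that went from 1045 to 2846. The largest falls were in MICAL2 (-2.34), RND1 (-1.48) and SRGAP1. RND1, a plexin-binding GTPase, had a low level, with mean scaled counts of 28.3 in sh-Control and 9.47 in sh-METTL3. SRGAP1, a Robo-binding GTPase activator, went from 820 to 411. MICAL2, an actin-oxidising enzyme of the family that acts behind plexins, went from 18631 to 3676. MICAL1 and MICAL3, by contrast, were higher at 0.29 and 0.56.

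A list of 25 other guidance molecules had 12 listed, 9 higher and 3 lower, with a median of 0.68. RTN4RL1, a Nogo receptor homolog, had 0 reads in all control libraries and 8.30 ± 0.893 scaled counts (SD, n = 3) in the silenced ones, which was at least 9.31-fold higher than a floor of 3 reads over the control group. NFASC, an L1-type adhesion molecule of the node and axon initial segment, rose by 1.66 on the log2 scale and FLRT2, which binds UNC5 receptors, by 1.33. The falls were in LRRC4B (-2.19), a synaptic adhesion molecule, SDC3 (-1.10), a heparan sulphate proteoglycan, and LINGO2 (-0.72).

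Markers of cell type moved alongside. Of 16 RPE markers 8 were listed, with KRT8, KRT18, LRAT, MITF and SLC16A8 higher and BEST1, PMEL and SERPINF1 lower, and RPE65 and RLBP1 of the visual cycle, the pigment genes TYR, TYRP1 and DCT, and TTR, OTX2 and MERTK were not among the listed genes, so that these could not be used to check the labelled cell type. Of 14 neuron markers 3 were listed, all higher. NEFH, a neurofilament subunit, went from 0.889 ± 0.938 to 125.5 ± 12.0, SYT1 from 191 ± 27.8 to 512 ± 11.6 and SYP from 10.9 ± 0.901 to 27.0 ± 6.49 (SD, n = 3). Their summed scaled counts ranged from 180.4 to 233 in the control libraries and from 657 to 672 in the silenced ones. Of 10 mesenchymal markers 6 were listed, with VIM, TAGLN and TWIST1 higher and PDGFRB, FN1 and THY1 lower, although the groups of TAGLN overlapped. The part of these shifts in the changes of the guidance genes was not tested.

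Some members changed in the same direction as most listed genes around them. ROBO3 and ROBO4 lie together on chromosome 11, where 76.6% of the 578 listed genes were lower in sh-METTL3. Within 5 Mb of ROBO4, 95.3% of 43 other listed genes were lower and their median change was -0.77 on the log2 scale, and within 5 Mb of ROBO3 it was 95.2% of 42, at a median of -0.86. The fall of ROBO3 (-0.71) was no larger than that median, whereas the fall of ROBO4 (-2.41) exceeded it. For NTN4, which was higher, 70.8% of 24 neighbours were lower. Higher members with mostly higher neighbours included CNTN4 (0% of 6 neighbours lower, median 0.75), CNTN3 (22.2% of 9, median 0.85), PLXNA3 and PLXNB3 (21.4% of 42 for each, median 0.47) and PLXNA4 (26.7% of 30, median 0.44). L1CAM, which was lower, lay in the region of PLXNB3, where 8 of its 42 neighbours were lower. Over the members not on chromosome 11 and other than NTN4 the share reached at most 66.7%, and SEMA3A, NRP1 and RGMB fell with neighbours that were lower in 33.3%, 38.5% and 58.8%. The part of the chromosomal region in these changes was not tested.

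**Figure D5:**
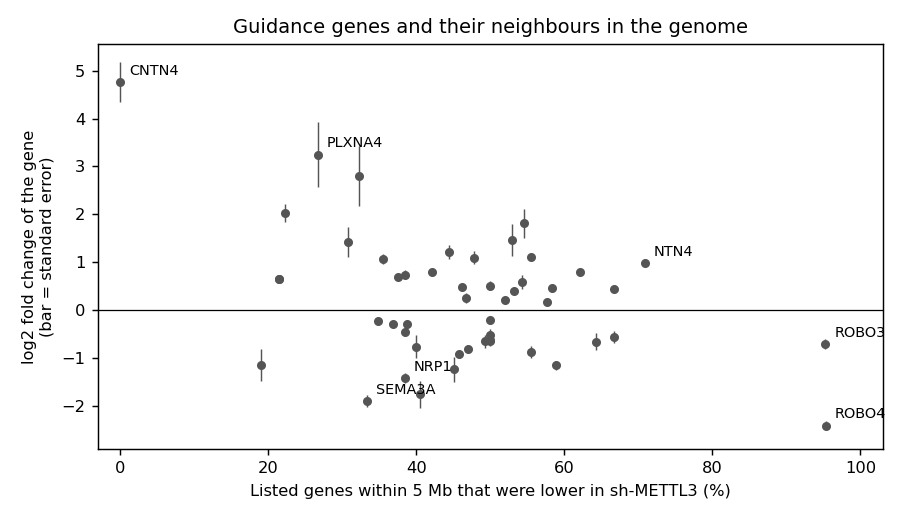
Log2 fold change of each of the 50 guidance genes (vertical axis, bars for standard errors, n = 3 per group) against the share of other listed genes within 5 Mb that were lower in sh-METTL3 (horizontal axis, percent). ROBO3 and ROBO4 stand alone at 95.2% and 95.3%, whereas the other members lie at 70.8% or less, and genes of both signs occur over most of that range.

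Because METTL3 methylates adenosine within a consensus of which GGACT is the best known form, the coding sequences of the members were searched for these letters on the transcript strand, using 1 GENCODE transcript per gene. No methylation was measured in these libraries, a match is not a methylated site, and the motif was chosen with the values known. All but 3 members (47 of 50) held at least 1 coding GGACT, the exceptions being SEMA3A, NTNG1 and DPYSL2, beside 75.9% of listed protein-coding genes, whose coding sequences were shorter (median 1461 bases against 2955). The median was 1.18 per kb of coding sequence for the members, against 0.988 over 6737 listed protein-coding genes. It was 1.00 for the 27 higher members and 1.69 for the 23 lower ones, against 1.03 and 0.958 for all listed protein-coding genes that were higher and lower. Over whole transcripts the corresponding medians were closer, at 0.976 and 1.19 for the members against 0.994 and 0.913. These are descriptions without a test.

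A coding GGACT is shown for the EPHB and SLIT pairs, whose genes changed in opposite directions, and for NRP1 and ROBO4, the receptors that fell furthest. MAP1B, which the study chose for PCR, is also shown. The match is the one nearest the stop codon whose window of 25 bases lies in 1 exon and does not pass the stop codon. In MAP1B and NRP1 it lies 2317 and 1050 bases before the coding end. The motif is in capitals, 5′ to 3′ on the transcript strand (GRCh38). In the kinase genes EPHB2 (chr1:22910449-22910473, plus strand, exon 14 of 16) and EPHB4 (chr7:100805603-100805627, minus strand, exon 15 of 17) 24 of the 25 bases are the same, while EPHB2 was higher and EPHB4 lower. The others are from NRP1 (chr10:33207600-33207624, minus strand, exon 11 of 18), ROBO4 (chr11:124886713-124886737, minus strand, exon 16 of 18), SLIT2 (chr4:20617006-20617030, plus strand, exon 35 of 37), SLIT3 (chr5:168669908-168669932, minus strand, exon 35 of 36) and MAP1B (chr5:72198430-72198454, plus strand, exon 5 of 7).
EPHB2: aactcatgctGGACTgttggcagaa
EPHB4: agctcatgctGGACTgttggcagaa
NRP1: cactcatggcGGACTggggctcaga
ROBO4: gacatgggcaGGACTggaggagggg
SLIT2: gtgagctgcaGGACTtccagaaggt
SLIT3: gctatggaggGGACTtgtgtgacaa
MAP1B: ctgacatgcaGGACTccagtttatc

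Promoters were examined because the study followed NR2F1, a nuclear receptor, whose transcript was higher in sh-METTL3 (log2 fold change 0.66). RefSeq promoters on GRCh38.p14, from 250 bases before to 50 after the start, were at hand for 43 of the 50 members. For 11 of these the RefSeq start lay more than 1000 bases from the GENCODE start of the gene, among them PLXNC1 and CNTN1, whose motif matches below are thus at other start sites. The nuclear receptor half-site AGGTCA occurred on either strand in 5 of them (SEMA5B, ROBO4, NTN4, RGMB and CNTN1), or 11.6%, against 13.9% of all 27305 promoters and 9.71% of those of listed protein-coding genes. Of these genes 3 were higher and 2 lower. The AP-1 element TGANTCA occurred in 2 (PLXNC1 and RGMB), or 4.65%, against 7.76% and 4.76%. Neither share was tested. Shown are the promoters of RGMB (chr5:98768382-98768681, plus strand), which was lower and held both motifs, and NTN4 (chr12:95791106-95791405, minus strand), which was higher, with the motifs in capitals (TGACCT is AGGTCA read on the other strand).
RGMB: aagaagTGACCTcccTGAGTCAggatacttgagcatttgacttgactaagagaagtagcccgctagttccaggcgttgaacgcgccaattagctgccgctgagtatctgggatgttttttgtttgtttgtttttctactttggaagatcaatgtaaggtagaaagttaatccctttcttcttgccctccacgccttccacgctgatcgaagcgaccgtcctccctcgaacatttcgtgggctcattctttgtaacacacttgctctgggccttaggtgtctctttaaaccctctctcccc
NTN4: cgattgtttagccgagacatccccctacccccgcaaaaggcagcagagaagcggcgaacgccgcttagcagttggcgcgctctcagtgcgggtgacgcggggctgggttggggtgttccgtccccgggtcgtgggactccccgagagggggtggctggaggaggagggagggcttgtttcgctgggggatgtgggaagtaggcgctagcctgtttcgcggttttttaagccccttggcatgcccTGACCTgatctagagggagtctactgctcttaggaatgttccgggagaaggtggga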

How the data were processed

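RNA of 6 libraries was prepared with a TruSeq kit. The submitters' processing notes name HISAT2 2.0.5 and hg38, and the study's methods name Cufflinks with RefSeq, whereas the table carries Ensembl identifiers. All 7758 genes are in GENCODE 29, 7757 of them with the same length and position. Neither the counting tool nor strandedness was given. The authors deposited, per library, a signal: the read count of a gene over 1 size factor. 100% of the values gave whole reads within 0.05. Group means, fold changes and p-values that the authors deposited were not used. None of their adjusted p-values was above 0.05, so the table holds genes they had called.

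Groups were taken from sample titles. log2(scaled count + 1) of all 7758 genes was fitted with limma 3.58.1 (intensity trend, R 4.3.3) without covariates, adjusted by Benjamini-Hochberg over 7758 genes (threshold 0.05), which understates the change of low genes. The fits were tested on simulated data. Replicate numbers do not pair the libraries, since deviations from the group means correlated at 0.004, 0.019 and -0.015 for numbers 1, 2 and 3. Alternatives were a pseudocount of 0.1, a mean of at least 50, edgeR 4.0.16 with TMM, RLE or the authors' size factors and DESeq2 1.42.0 on the recovered reads, limma without trend, a replicate block, adjustment over 60000 tests, and leaving out each library. Named genes were METTL3, MAP1B and, per family, up to 4 called members with the largest change, a mean scaled count of 50 or more and groups that did not overlap. Other members are named with at least their direction or range, and several, among them EPHA3, SEMA7A and L1CAM, with further values. In the signalling and other-guidance lists the 3 largest rises and 3 largest falls are named, except that 1 result this rule selects is not reported here. MICAL1, MICAL3 and NR2F1 and the genes described with the markers were named besides. The members and lists were chosen with earlier results of these data known. Of the genes whose names matched, 2 were not protein-coding and were left out. Exons of 17 members overlap another gene.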

Additional observations from a re-analysis of the deposited data

How the results depend on the processing

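Across 15 alternatives, 44 of the 50 members kept their direction and their side of the threshold in every one they were tested in, and none reversed. The 6 that lost the call in at least 1 were EPHA3, EPHB4, SEMA4B, L1CAM, PLXNB2 and SEMA7A. Members passing numbered 48 with RLE scaling, 45 over 60000 tests, 49 without the intensity trend (SEMA7A lost) and 48 to 50 when a library was left out. RLE scaling moved the median log2 fold change of all listed genes from -0.21 to -0.09 and the share of higher genes among those called from 47.7% to 52.6%. Requiring a mean of at least 50 left 6 doubled members in place of 11, because the 5 weakly expressed ones are then not tested. METTL3 missed the threshold with RLE scaling (-0.17) and over 60000 tests (-0.30, adjusted p = 0.0835). Leaving out each library gave 25 to 27 higher and 22 to 23 lower members, 10 to 11 doubled and 6 to 7 halved, and METTL3 log2 fold changes between -0.38 and -0.18. The replicate block changed no call of a member: 27 were higher and 23 lower, and the 50 called with it were the 50 called without it. A member's log2 fold change moved by up to 2.42 times with RLE scaling (SEMA4B, -0.21 to -0.09) and by up to 1.52 times with a pseudocount of 0.1. Depth is unknown, and members with few reads (CNTN4, CNTNAP3, PLXNA4, EPHA10 and SEMA5B) are the least precise.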
